A study of Mus musculus with 12 samples.

Results

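The 10 genes described here encode enzymes and helpers that turn newly made procollagen chains into collagen, and they were followed in cultured adventitial fibroblasts of the mouse aorta. They are the prolyl 4-hydroxylase subunits *P4ha1*, *P4ha2* and *P4ha3*, the lysyl hydroxylase *Plod2*, the collagen chaperone *Serpinh1*, the procollagen C-proteinase *Bmp1* with its enhancers *Pcolce* and *Pcolce2*, and the procollagen N-proteinases *Adamts2* and *Adamts14*. The genes were taken by name from the 54352 gene symbols of the count table, by a rule that names them and sets no threshold on a measured value, and the names were chosen with earlier results of these data known. All 10 were counted in all 12 libraries, and all 10 passed the filter on low counts in every comparison. The cells were primary fibroblasts, grown out of the adventitia (the outer layer of the vessel wall) of wild-type C57Bl/6 mice aged 14 weeks by the sample labels. The 4 groups were ascending control, ascending TGFβ, descending control and descending TGFβ, with 3 cultures each, where control cultures received the solute and TGFβ cultures mouse TGFβ at 10 ng/mL, for 48 h. The sources used here do not say which cultures came from the same animals, so the p-values measure only the spread between these cultures, which may in part be technical. Age and number of passages are also given differently between the sources.

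Fibrillar collagens are made as procollagens with a propeptide at each end. In the endoplasmic reticulum, prolyl 4-hydroxylases hydroxylate proline residues, which keeps the triple helix stable at body temperature, lysyl hydroxylases prepare lysine residues for cross-links, and the chaperone HSP47, the product of *Serpinh1*, binds the folded helix. After folding and export, N-proteinases of the ADAMTS family remove the amino-terminal propeptide and C-proteinases of the BMP1/tolloid family the carboxy-terminal one. The processed molecules assemble into fibrils. Adventitial fibroblasts produce much of the fibrillar collagen of the outer vessel wall, and TGFβ is a classical inducer of collagen synthesis in fibroblasts.

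The libraries held 16250126 to 23892943 counted reads, and counts were scaled to normalized CPM (CPM, a count relative to the library's total, after TMM scaling). At this depth, 3 counts, the floor used here, corresponded to 0.117 to 0.207 normalized CPM, and floors cover counting error only. The lowest count of any of the 10 genes in a library was 99, for *Adamts14*. Descending control replicate 3 stood apart. Only 13031 genes had any count in it, where the other libraries detected 19337 to 20931, and mitochondrial genes took 11.02% of its reads, where they took 0.703% to 1.03% elsewhere. Tests that use the descending controls are therefore given with and without it. Of 11 fibroblast markers, 11 lay over the floor in every library, and their sum, carried mostly by collagen genes and *Vim*, was 22166 to 22971 normalized CPM in ascending control, 25779 to 26123 in ascending TGFβ, 19350 to 20700 in descending control and 28282 to 30344 in descending TGFβ. With TGFβ, 8 of the 11 fell and 3 rose in ascending fibroblasts (edgeR's quasi-likelihood test, adjusted p under 0.05), and in descending ones 4 fell and 2 rose over all libraries and 8 fell and 3 rose without replicate 3. Of all genes tested, 55.8%, 8.07% and 52.9% were called in these 3 fits. *Pdgfra*, a receptor that marks fibroblasts, fell by 1.74 on the log2 scale in ascending and by 2.14 in descending fibroblasts (by 2.15 without replicate 3). Of 5 endothelial markers, 1 lay over the floor in every library, *Tek* at 3.60 to 25.7 normalized CPM, while *Pecam1* and *Cdh5* did not exceed 0.300, and the sum was 24.4 to 27.9 in ascending control, 4.70 to 5.73 in ascending TGFβ, 23.9 to 26.8 in descending control and 9.495 to 11.2 in descending TGFβ. Of 3 cardiomyocyte markers, 1 lay over the floor in every library, *Tnnt2*, and *Myh6* had 0 counts throughout, with a sum of 5.85 to 7.75 in ascending control, 3.36 to 3.75 in ascending TGFβ and 0.156 to 1.47 in the descending groups. Of 3 Schwann cell and neural markers, 1 lay over the floor in every library, *S100b*, and the sum was 19.4 to 23.4 in ascending control, 12.7 to 13.7 in ascending TGFβ, 14.8 to 24.8 in descending control and 10.8 to 12.1 in descending TGFβ. Of 6 smooth muscle markers, 5 lay over the floor in every library, and their sum, made up mostly of *Acta2*, was 1532 to 1648 in ascending control, 5038 to 5131 in ascending TGFβ, 2434 to 2509 in descending control and 7880 to 8305 in descending TGFβ. The list did not move as its sum did: in ascending fibroblasts 3 rose and 2 fell with TGFβ, and in descending ones 2 rose and 4 were not called over all libraries, and 4 rose and 1 fell without replicate 3. *Myh11*, a smooth muscle myosin, fell in ascending fibroblasts (log2 -0.63) and was at 0.38 (not called) in descending ones over all libraries and at 0.77 (called) without replicate 3. Of 5 leukocyte markers, 2 lay over the floor in every library, and their sum was 343 in ascending control replicate 2, 48.7 and 50.9 in the other ascending controls, and 10.0 to 43.5 in the remaining groups. Of 2 adipocyte markers, neither lay over the floor in every library, and their sum was 19.5 to 25.7 in descending control, 7.94 to 15.1 in descending TGFβ, and 0.0473 to 3.40 in the ascending groups. Of 5 mesothelial markers, 1 lay over the floor in every library, *Krt19*, *Wt1* lay at the floor throughout, and the sum was 33.5 to 44.2 in ascending control, 19.7 to 26.5 in ascending TGFβ and 6.90 to 13.9 in the descending groups. The ascending sum was mostly *Upk3b*, at means of 33.7 and 18.3 in ascending control and TGFβ and 0.860 and 0.818 in the descending groups, whereas *Krt19* was at 3.71 and 3.57 in the ascending and 10.02 and 12.3 in the descending groups. These marker levels move with site or treatment, and their part in the results below was not tested. In bulk RNA, fewer cells of a type and less RNA per cell cannot be told apart.

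Between genes, levels were compared per length, as RPKM (normalized CPM per kilobase of exon). *Serpinh1* was the most abundant of the 10 in every group, at 904 ± 3.71 RPKM in ascending control, 1377 ± 15.3 in ascending TGFβ, 637 ± 296 in descending control and 1428 ± 53.2 in descending TGFβ (mean ± SD, n = 3). Next came *P4ha1*, *Pcolce* and *Plod2*, between 116 and 267 RPKM as group means. In ascending control these neighbours lay close together, with *P4ha1* at 192 ± 1.14, *Pcolce* at 186 ± 2.43 and *Plod2* at 180.2 ± 5.80 RPKM, and the last of these did not differ from *Pcolce* by more than its SD plus that of *Pcolce*. In ascending TGFβ their order was *Plod2* (248 ± 4.42 RPKM), *P4ha1* (227 ± 3.95) and *Pcolce* (138 ± 2.87), with no overlap between libraries. *Bmp1*, *P4ha3*, *Adamts2*, *P4ha2* and *Pcolce2* lay between 4.26 and 46.5 RPKM, and *Adamts14* was lowest in every group, at 1.39 to 3.31 RPKM. Without descending control replicate 3, the means of the remaining 2 descending controls were 808 RPKM for *Serpinh1*, 225 for *Pcolce*, 169 for *Plod2* and 119 for *P4ha1*, and *Adamts14* was still lowest, at 4.30 RPKM.

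**Figure D1:**
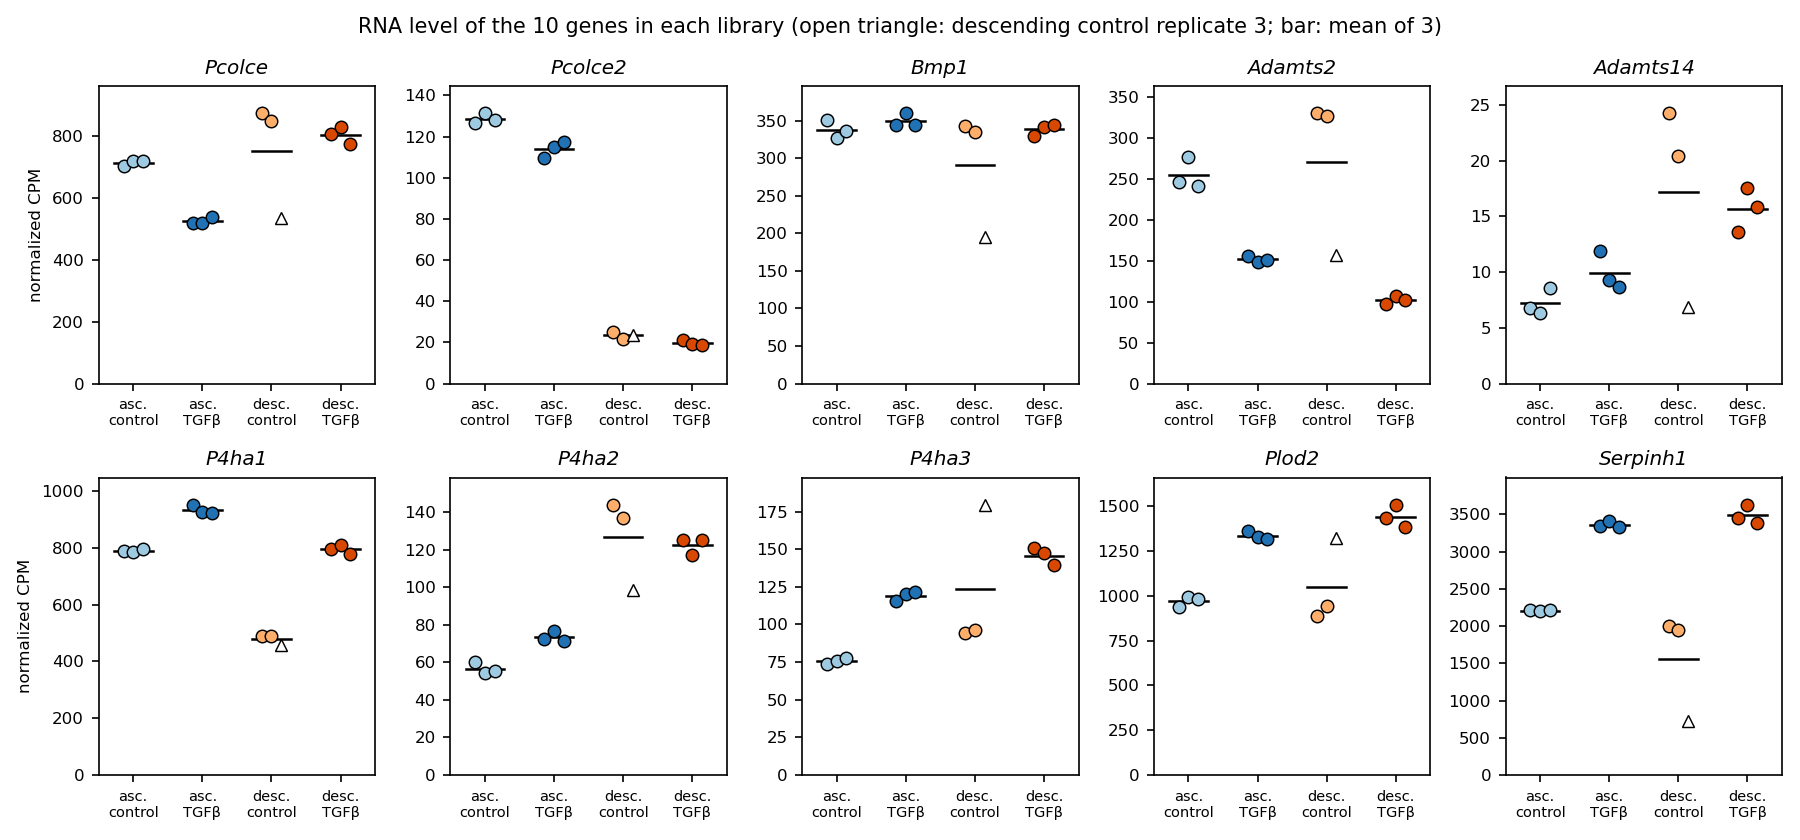
Normalized CPM (vertical axis, linear, from 0) of each of the 10 genes in the 12 libraries, by group of site and treatment. Points are single cultures, bars are means of 3, and the open triangle is descending control replicate 3. Pcolce2 separates the sites (109.6 to 131 against 18.7 to 25.3), Bmp1 lies between 327 and 360.1 in all libraries but the triangle, and for most genes the triangle lies away from the other descending controls.

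With TGFβ, most of the 10 genes changed in ascending fibroblasts, and not in a single direction. The chaperone and the hydroxylases rose together, whereas the N-proteinase *Adamts2* and the C-proteinase enhancers fell, and *Bmp1* did not pass the test. Genes were called at an adjusted p under 0.05, where every adjusted p is that of edgeR's two-sided quasi-likelihood test with Benjamini-Hochberg adjustment over all genes tested. In ascending fibroblasts 9 of the 10 genes were called, 6 higher and 3 lower, beside 55.8% of the 13917 genes tested (28.2% higher and 27.6% lower). Their median log2 fold change was 0.30, and that of all genes tested -0.0044. In descending fibroblasts 2 of the 10 were called over all 6 libraries, *P4ha1* higher and *Adamts2* lower, beside 8.07% of 13825 genes (3.59% higher and 4.48% lower), with a median of 0.15 against 0.021 for all genes. Without descending control replicate 3, 8 of the 10 were called, 4 higher and 4 lower, beside 52.9% of 14311 genes (26.6% higher and 26.3% lower), with a median of -0.048 against -0.012. With the 12 libraries in one fit, in which all groups share one estimate of the spread and descending control replicate 3 enters it, *Adamts2*, *P4ha1* and *Plod2* were still called in ascending fibroblasts. The other 6 kept log2 values of -0.44 (*Pcolce*), -0.18 (*Pcolce2*), 0.46 (*Adamts14*), 0.37 (*P4ha2*), 0.65 (*P4ha3*) and 0.61 (*Serpinh1*) in that fit and were not called (edgeR adjusted p = 0.0580 to 0.527). Since up to 55.8% of all genes were called, the count says little of these genes by itself, and the size and direction of each change are given one by one.

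**Figure D2:**
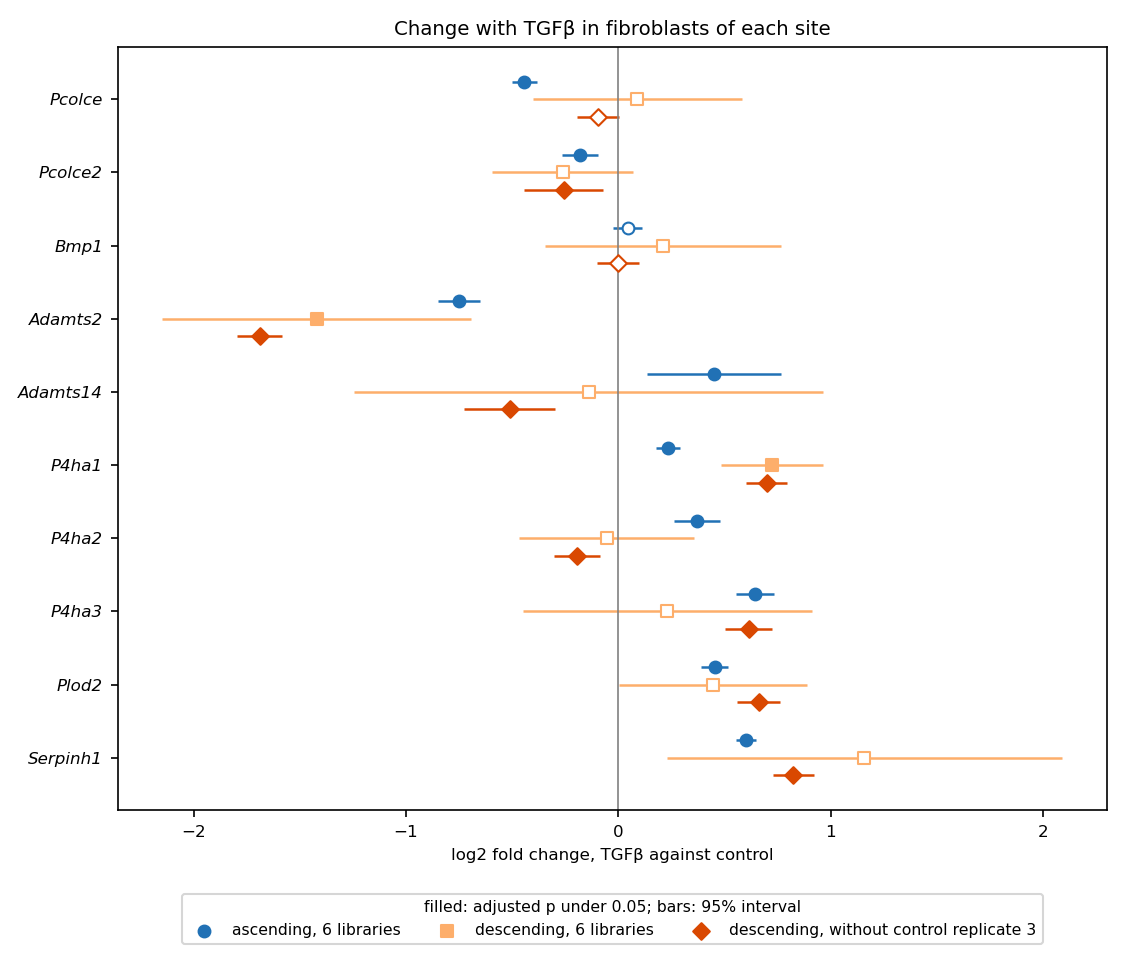
log2 fold change of TGFβ against control (horizontal axis) for each gene in ascending fibroblasts and in descending fibroblasts with and without control replicate 3. Bars are 95% intervals and filled symbols have an adjusted p under 0.05. Adamts2 lies lowest at both sites (-0.75 in ascending and -1.69 in descending fibroblasts without the replicate), and the intervals that include the replicate are the widest for every gene.

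Between the sites, *Pcolce2* and *P4ha1* were higher in ascending and *P4ha2* lower, with or without TGFβ. In control cultures 3 of the 10 genes were called over all 6 libraries, 2 higher in ascending (*Pcolce2* and *P4ha1*) and 1 lower (*P4ha2*), beside 2.65% of 14090 genes (1.19% higher and 1.47% lower). Without descending control replicate 3, 8 were called, 3 higher and 5 lower, beside 31.6% of 14644 genes (16.4% higher and 15.2% lower). Under TGFβ, where no library stood apart, 8 of the 10 were called, 3 higher in ascending and 5 lower, beside 36.3% of 13678 genes (18.1% higher and 18.2% lower). With the 12 libraries in one fit the differences under TGFβ of *Adamts2* (0.58), *Adamts14* (-0.66), *P4ha3* (-0.29) and *Plod2* (-0.11) were not called (edgeR adjusted p = 0.200 to 0.943). The median log2 difference of the 10 genes was -0.079 in control over all libraries, -0.13 without the replicate and -0.079 under TGFβ, against 0.045, -0.0011 and 0.0024 for all genes. The comparisons of treatment and of site share libraries with each other, so their values are given side by side and not as support for one another.

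**Figure D3:**
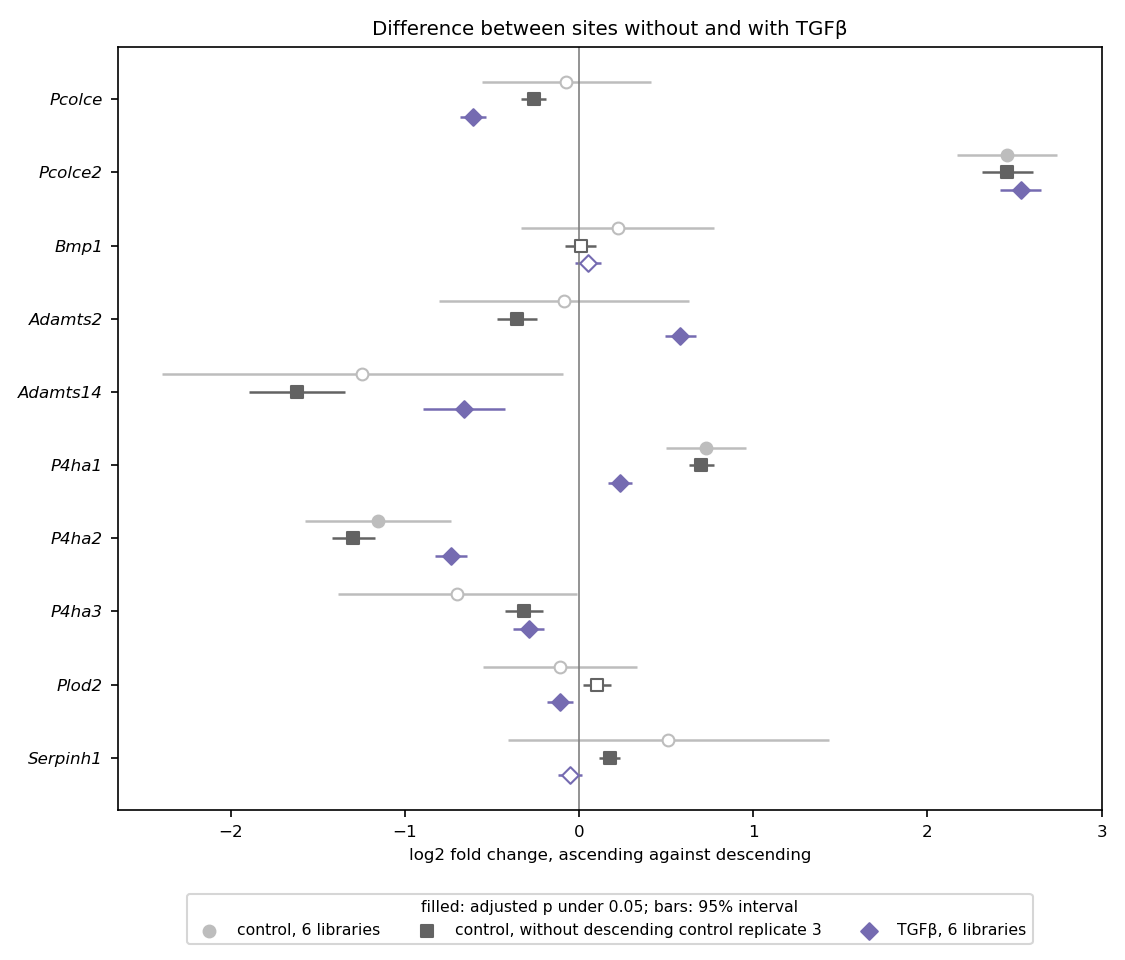
log2 fold change of ascending against descending fibroblasts (horizontal axis) for each gene, in control cultures with and without descending control replicate 3 and under TGFβ. Bars are 95% intervals and filled symbols have an adjusted p under 0.05. Pcolce2 stands far to the right (2.46 to 2.53), and Adamts2 is at -0.36 in control without the replicate but at 0.58 under TGFβ.

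The change with TGFβ was compared between the sites by the interaction of site and treatment, where a positive value is a more positive change in ascending than in descending fibroblasts. Over the 12 libraries 1 of the 10 genes was called, *P4ha1* with a negative value, beside 0.806% of 14637 genes (0.321% positive and 0.485% negative). Without descending control replicate 3, 7 were called, beside 13.5% of 15013 genes (6.07% positive and 7.40% negative). These were *Adamts2*, *Adamts14* and *P4ha2* with positive values, and *Pcolce*, *P4ha1*, *Plod2* and *Serpinh1* with negative ones. The median of the 10 genes was 0.040 over the 12 libraries and 0.042 without the replicate, against -0.061 and 0.0057 for all genes.

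The hydroxylases and the chaperone act inside the endoplasmic reticulum, and the promoters of 3 of them are shown because these genes rose with TGFβ in ascending fibroblasts and each holds one of the motifs searched. The sequences are RefSeq's, from 250 bases before to 20 bases after RefSeq's start of the gene in GRCm38.p6, 5′ to 3′ along the gene, and capitals mark matches on either strand to CAGAC (bound by SMAD proteins) or ACGTG (the core of the hypoxia response element). *P4ha1* is shown from chr10:59323046-59323315 (plus strand), *P4ha2* from chr11:54100674-54100943 (plus strand) and *Serpinh1* from chr7:99353220-99353489 (minus strand). For *P4ha2* RefSeq's start lies 829 bases inside the gene as GENCODE, the source of the gene positions given here, draws it, so the whole window lies within that gene. For *P4ha1* and *Serpinh1* both annotations start at the same base.
P4ha1: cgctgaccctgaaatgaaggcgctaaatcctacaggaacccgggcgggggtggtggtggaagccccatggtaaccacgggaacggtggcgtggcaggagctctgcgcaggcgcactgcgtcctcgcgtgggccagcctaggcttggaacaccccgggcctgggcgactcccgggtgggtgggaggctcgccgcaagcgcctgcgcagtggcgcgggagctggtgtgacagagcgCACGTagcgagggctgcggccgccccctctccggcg
P4ha2: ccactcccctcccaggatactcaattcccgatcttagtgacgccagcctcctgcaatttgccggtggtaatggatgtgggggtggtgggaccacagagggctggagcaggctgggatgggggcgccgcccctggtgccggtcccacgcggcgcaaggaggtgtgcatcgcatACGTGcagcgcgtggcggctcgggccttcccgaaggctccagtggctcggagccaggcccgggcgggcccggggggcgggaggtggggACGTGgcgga
Serpinh1: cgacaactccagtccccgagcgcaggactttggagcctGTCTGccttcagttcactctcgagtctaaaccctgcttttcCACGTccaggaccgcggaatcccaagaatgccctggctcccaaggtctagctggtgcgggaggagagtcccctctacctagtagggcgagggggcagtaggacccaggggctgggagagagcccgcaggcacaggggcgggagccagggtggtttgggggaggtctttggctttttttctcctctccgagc
Counted from RefSeq's start at position 0, ACGTG matched at -16 in *P4ha1* on the reverse strand, at -78 and 10 in *P4ha2*, and at -171 in *Serpinh1* on the reverse strand, where CAGAC also matched at -212. Among all 32851 RefSeq promoters of 300 bases, 19.6% hold ACGTG and 49.6% CAGAC, so such matches are common. The AP-1 motif TGANTCA (in 7.81% of promoters) and CCAAT (in 37.4%) matched in none of the 8 genes that have an entry, and *P4ha3* held none of the 4 motifs. A match is a description of letters and not a sign of binding, and *Bmp1* and *Plod2* are named without a sequence.

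*P4ha1*, on chromosome 10 from 59323296 to 59373304 (plus strand, GRCm38, as for all gene positions here), encodes the main catalytic α subunit of prolyl 4-hydroxylase in most cells. Its level was 789, 787 and 796 normalized CPM in ascending control, 952, 925 and 924 in ascending TGFβ, 489, 491 and 457 in descending control and 796, 809 and 777 in descending TGFβ. The descending controls were the lowest, the ascending TGFβ cultures the highest, and the remaining groups overlapped, so that descending fibroblasts under TGFβ lay at the level of untreated ascending ones. *P4ha1* rose with TGFβ by 0.24 on the log2 scale in ascending fibroblasts (SE 0.03, edgeR adjusted p = 8.61e-07) and by 0.72 in descending ones (SE 0.10, adjusted p = 0.0112; without replicate 3, 0.70, SE 0.05, adjusted p = 1.81e-13). It was 1.66-fold higher in ascending than in descending control (log2 0.73, SE 0.09, edgeR adjusted p = 0.0192; without the replicate 0.70, adjusted p = 1.52e-09) and 1.18-fold higher under TGFβ (log2 0.24, SE 0.03, adjusted p = 2.27e-06). The interaction was -0.49 (95% interval -0.68 to -0.30, edgeR adjusted p = 0.0316; without the replicate -0.46, adjusted p = 1.32e-07). Over all libraries, the calls that use the descending controls were lost when any other single library of the comparison was left out, with log2 values of 0.72 to 0.75 for TGFβ in descending fibroblasts (adjusted p = 0.0541 to 0.0992) and 0.73 to 0.74 for site in control (0.0939 to 0.188). That of the interaction was lost in 10 of the 12 such fits (-0.51 to -0.48, adjusted p = 0.0636 to 0.136) and kept without descending control replicate 1 or 3.

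*P4ha2*, on chromosome 11 from 54100095 to 54131665 (plus strand), encodes another catalytic α subunit. It read 60.3, 54.1 and 55.6 normalized CPM in ascending control, 72.4, 76.5 and 71.5 in ascending TGFβ, 144, 137 and 98.7 in descending control, and 125, 117 and 125 in descending TGFβ. Every ascending culture lay below every descending one. In ascending fibroblasts *P4ha2* rose with TGFβ (log2 0.37, SE 0.05, edgeR adjusted p = 1.08e-05). In descending fibroblasts the change was -0.05 over all libraries (95% interval -0.47 to 0.36, edgeR adjusted p = 0.878) and -0.19 without replicate 3 (SE 0.05, adjusted p = 0.00282), and the interaction was 0.42 (edgeR adjusted p = 0.465) and 0.57 (adjusted p = 2.88e-06), respectively. *P4ha2* was 2.23-fold lower in ascending than in descending control (log2 -1.15, SE 0.17, edgeR adjusted p = 0.0290; without the replicate -1.30, adjusted p = 7.34e-10) and 1.66-fold lower under TGFβ (log2 -0.74, SE 0.05, adjusted p = 9.02e-14). Over all libraries the call in control was lost when any other library was left out (log2 -1.20 to -1.05, adjusted p = 0.111 to 0.226).

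The third α subunit, *P4ha3*, lies on chromosome 7 from 100285520 to 100319699 (plus strand). Ascending controls held 74.0, 76.0 and 78.0 normalized CPM, ascending TGFβ cultures 115, 120.4 and 122, descending controls 94.3, 96.6 and 179.7, and descending TGFβ cultures 151, 147 and 139. The library that stood apart was the highest of all 12, and without it the groups did not overlap. *P4ha3* rose 1.56-fold with TGFβ in ascending fibroblasts (log2 0.64, SE 0.04, edgeR adjusted p = 7.82e-10). In descending fibroblasts the value was 0.23 (SE 0.28, edgeR adjusted p = 0.665) with and 0.61 (SE 0.05, adjusted p = 7.52e-11) without replicate 3. The interaction was 0.41 (95% interval -0.23 to 1.05, edgeR adjusted p = 0.605) with the replicate and 0.03 (-0.10 to 0.17, adjusted p = 0.812) without it. Under TGFβ *P4ha3* was lower in ascending fibroblasts (log2 -0.29, SE 0.04, edgeR adjusted p = 2.75e-06), and in control the difference was -0.70 (adjusted p = 0.380) with and -0.32 (adjusted p = 0.000305) without the replicate.

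As a share of the RNA of the 3 subunits, per length, *P4ha1* made up 85.1% to 85.3% in ascending control, 81.6% to 82.7% in ascending TGFβ and 73.9% to 74.9% in descending TGFβ. In descending control it was 60.3% in replicate 3 and at most 69.3% in the others. *P4ha2* made up 3.87% to 4.45% in the ascending groups, 7.16% to 7.91% in descending TGFβ and 8.59% to 13.4% in descending control. *P4ha3* made up 10.5% to 14.1% in the ascending groups and 17.5% to 31.1% in the descending ones, where the highest value was again that of replicate 3. The mix of subunits thus leaned more towards *P4ha1* in every ascending library than in any descending one.

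*Plod2* encodes the lysyl hydroxylase that acts on the telopeptides, the short ends of the helix where cross-links form, and lies on chromosome 9 from 92542223 to 92608428 (plus strand). Its levels were 936, 994 and 985 normalized CPM in ascending control, 1361, 1328 and 1315 in ascending TGFβ, 886, 940.4 and 1325 in descending control, and 1432, 1509 and 1382 in descending TGFβ. Both TGFβ groups lay above all controls other than descending control replicate 3. With TGFβ *Plod2* rose 1.37-fold in ascending fibroblasts (log2 0.45, SE 0.03, edgeR adjusted p = 8.15e-10). In descending fibroblasts the value was 0.45 (SE 0.18, edgeR adjusted p = 0.208) with and 0.66 (SE 0.05, adjusted p = 1.76e-12) without replicate 3, and the interaction 0.00 (adjusted p = 0.997) and -0.20 (adjusted p = 0.0133). Sites differed little: the log2 difference was -0.11 in control (edgeR adjusted p = 0.779; without the replicate 0.10, adjusted p = 0.0565) and -0.11 under TGFβ (adjusted p = 0.0192). The call under TGFβ was lost without descending TGFβ replicate 2 (-0.08, edgeR adjusted p = 0.0842), ascending TGFβ replicate 2 (-0.10, adjusted p = 0.0686) or ascending TGFβ replicate 3 (-0.10, adjusted p = 0.103). Of its 50-base exon sequences 5.51% also occur in Gm38391, which overlaps 6.42% of its exons on the other strand, and the strand setting of the counting is not given in the sources used here.

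*Serpinh1*, whose product HSP47 binds procollagen triple helices and keeps them from aggregating, lies on chromosome 7 from 99345376 to 99353239 (minus strand). The counts gave 2216, 2199 and 2212 normalized CPM in ascending control, 3347, 3406 and 3337 in ascending TGFβ, 2004, 1944 and 721 in descending control, and 3449.8, 3632 and 3381 in descending TGFβ. All TGFβ cultures lay far above all controls, and descending control replicate 3 was by far the lowest library. *Serpinh1* rose 1.52-fold with TGFβ in ascending fibroblasts (log2 0.60, SE 0.02, edgeR adjusted p = 5.74e-13). For descending fibroblasts the fit over all libraries gave 1.16 (SE 0.38, edgeR adjusted p = 0.135), and without replicate 3 it gave 0.82, a 1.77-fold rise (SE 0.05, adjusted p = 3.49e-15). The interaction was -0.56 (SE 0.40, edgeR adjusted p = 0.609) with the replicate and -0.22 (SE 0.05, adjusted p = 0.00145) without it. Under TGFβ the sites differed by -0.05 (95% interval -0.12 to 0.02, edgeR adjusted p = 0.270), and in control by 0.51 (adjusted p = 0.566) with and 0.18 (adjusted p = 0.000240) without the replicate.

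*Bmp1*, on chromosome 14 from 70474558 to 70520234 (minus strand), encodes the procollagen C-proteinase, which also acts on the precursor of lysyl oxidase. Its level was 351, 327 and 336 normalized CPM in ascending control, 345, 360.1 and 345 in ascending TGFβ, 343, 335 and 195 in descending control, and 329, 341 and 344 in descending TGFβ. Apart from descending control replicate 3, all libraries lay between 327 and 360.1 normalized CPM, with little separation of the groups. In ascending fibroblasts the change with TGFβ was 0.04 (95% interval -0.03 to 0.11, edgeR adjusted p = 0.276). In descending fibroblasts it was 0.21 over all libraries (95% interval -0.35 to 0.77, edgeR adjusted p = 0.625) and -0.00 without the replicate (-0.10 to 0.10, adjusted p = 0.988). The difference between the sites was 0.05 under TGFβ (95% interval -0.03 to 0.13, edgeR adjusted p = 0.314), and in control 0.22 (-0.33 to 0.78, adjusted p = 0.666) with and 0.01 (-0.08 to 0.10, adjusted p = 0.905) without the replicate. The interaction was -0.17 (95% interval -0.70 to 0.37, edgeR adjusted p = 0.764) with and 0.05 (-0.06 to 0.16, adjusted p = 0.652) without it. *Bmp1* was the only 1 of the 10 genes with no call in any of these comparisons, with or without that library.

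The enhancers raise the activity of the C-proteinase without cutting procollagen themselves. The promoter of *Pcolce2*, from chr9:95637378-95637647 (plus strand, 250 bases before to 20 after RefSeq's start, GRCm38.p6), is shown because this gene held the largest difference between the sites among the 10, and none of the 4 motifs searched occurs in it.
Pcolce2: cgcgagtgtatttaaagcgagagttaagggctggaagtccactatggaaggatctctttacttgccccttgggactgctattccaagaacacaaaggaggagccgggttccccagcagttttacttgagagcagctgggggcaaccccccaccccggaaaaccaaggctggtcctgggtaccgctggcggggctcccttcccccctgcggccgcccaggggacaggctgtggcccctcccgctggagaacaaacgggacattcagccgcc
*Pcolce2* lies on chromosome 9 from 95637601 to 95698096 (plus strand). It read 127, 131 and 128 normalized CPM in ascending control, 109.6, 115 and 117 in ascending TGFβ, 25.3, 21.9 and 23.4 in descending control, and 21.0, 19.4 and 18.7 in descending TGFβ. Every ascending culture lay at over 4 times the level of every descending culture, and descending control replicate 3 lay between the other descending controls. The gene was 5.49-fold higher in ascending than in descending control (log2 2.46, SE 0.12, edgeR adjusted p = 0.00155; without replicate 3, 2.46, SE 0.07, adjusted p = 6.97e-12) and 5.79-fold higher under TGFβ (log2 2.53, SE 0.06, adjusted p = 4.50e-24). The call in control was kept when any single library was left out, with an edgeR adjusted p of at most 0.0274 and log2 values of 2.41 to 2.51. With TGFβ *Pcolce2* fell by 0.18 on the log2 scale in ascending fibroblasts (SE 0.04, edgeR adjusted p = 0.000852). In descending fibroblasts the value was -0.26 (adjusted p = 0.311) over all libraries and -0.26 (adjusted p = 0.0187) without replicate 3, and the interaction was 0.08 with (95% interval -0.18 to 0.34, edgeR adjusted p = 0.767) and 0.08 without it (-0.10 to 0.26, adjusted p = 0.638).

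*Pcolce*, the more abundant enhancer, lies on chromosome 5 from 137605103 to 137613784 (minus strand), where 2.93% of its exon bases overlap *Fbxo24* on the same strand. Its levels were 701, 717 and 717 normalized CPM in ascending control, 519, 519.7 and 538 in ascending TGFβ, 873, 846 and 535 in descending control, and 806, 829.7 and 774 in descending TGFβ. The ascending TGFβ cultures were lower than all others except descending control replicate 3, which fell among them. *Pcolce* fell 1.36-fold with TGFβ in ascending fibroblasts (log2 -0.44, SE 0.03, edgeR adjusted p = 6.71e-10). In descending fibroblasts the change was 0.09 (SE 0.20, edgeR adjusted p = 0.827) with and -0.10 (SE 0.05, adjusted p = 0.0917) without replicate 3, and the interaction -0.53 (adjusted p = 0.425) and -0.34 (adjusted p = 2.87e-05). Under TGFβ *Pcolce* was 1.53-fold lower in ascending than in descending fibroblasts (log2 -0.61, SE 0.04, edgeR adjusted p = 3.61e-14). In control the difference was -0.07 (edgeR adjusted p = 0.863) with and -0.26 (adjusted p = 3.60e-05) without the replicate.

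Per length, *Pcolce2* made up 12.9% to 13.2% of the RNA of the enhancers in ascending control and 14.9% to 15.4% in ascending TGFβ. In descending TGFβ the share was 1.90% to 2.11%, and in descending control 2.09% to 3.49%, with the upper value in replicate 3. *Pcolce* was thus the main enhancer transcript at both sites, and the ascending cultures held the larger part of *Pcolce2*.

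**Figure D4:**
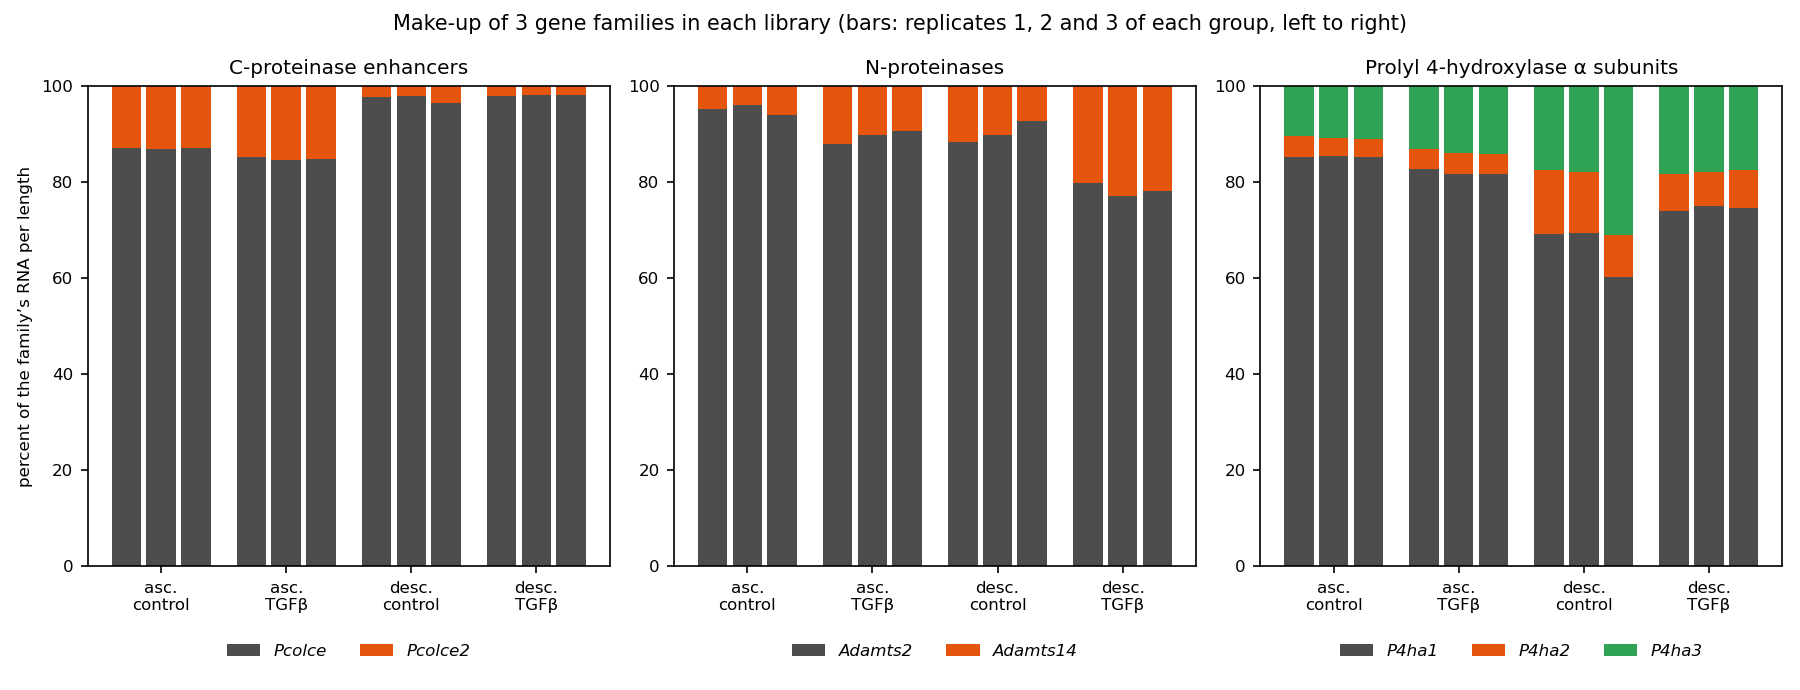
Share of each gene in the RNA of its family, per length (vertical axis, percent), for the C-proteinase enhancers, the N-proteinases Adamts2 and Adamts14 and the prolyl 4-hydroxylase α subunits. Each bar is 1 library, with replicates 1 to 3 from left to right within a group. Pcolce2 holds 12.9% to 15.4% in ascending and at most 3.49% in descending libraries, and Adamts14 reaches 20.2% to 22.9% in descending TGFβ.

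The N-proteinases *Adamts2* and *Adamts14* both cut the amino-terminal propeptide of fibrillar procollagens, and loss of *ADAMTS2* causes a fragile-skin form of Ehlers-Danlos syndrome. Their promoters are shown side by side because the paralogs were called in opposite directions with TGFβ in ascending fibroblasts. The call of *Adamts14* there was lost without ascending TGFβ replicate 1. In descending fibroblasts without control replicate 3 both fell (log2 -1.69 for *Adamts2* and -0.51 for *Adamts14*). *Adamts2* is shown from chr11:50601835-50602104 (plus strand) and *Adamts14* from chr10:61273400-61273669 (minus strand), 250 bases before to 20 after RefSeq's start (GRCm38.p6), with the match to CAGAC on the reverse strand in capitals.
Adamts2: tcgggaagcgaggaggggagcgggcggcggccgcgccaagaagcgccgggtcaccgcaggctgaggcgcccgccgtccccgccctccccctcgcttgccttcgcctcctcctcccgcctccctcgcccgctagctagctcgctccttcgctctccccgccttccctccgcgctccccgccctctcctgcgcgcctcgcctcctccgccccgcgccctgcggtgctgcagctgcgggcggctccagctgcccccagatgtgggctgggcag
Adamts14: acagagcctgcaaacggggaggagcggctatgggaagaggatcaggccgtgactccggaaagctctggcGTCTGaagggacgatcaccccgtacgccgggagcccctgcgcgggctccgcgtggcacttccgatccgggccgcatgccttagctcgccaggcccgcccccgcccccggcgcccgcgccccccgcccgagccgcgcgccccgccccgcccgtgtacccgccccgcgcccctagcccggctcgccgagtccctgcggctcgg
CAGAC matched at -181 in *Adamts14*, none of the 4 motifs matched in *Adamts2*, and both 300-base promoters are rich in G and C, at 77.3% for *Adamts2* and 76.7% for *Adamts14* beside a median of 52.7% over all promoters.

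*Adamts2*, on chromosome 11 from 50602084 to 50807573 (plus strand), read 246, 276 and 241 normalized CPM in ascending control, 155, 149 and 151 in ascending TGFβ, 330.3, 326 and 157 in descending control, and 96.6, 107 and 102 in descending TGFβ. Each TGFβ group lay below its controls without overlap, and the descending TGFβ cultures were the lowest of all. *Adamts2* fell 1.68-fold with TGFβ in ascending fibroblasts (log2 -0.75, SE 0.05, edgeR adjusted p = 4.57e-10). In descending fibroblasts it fell 2.68-fold over all libraries (log2 -1.42, SE 0.30, edgeR adjusted p = 0.0418) and 3.22-fold without replicate 3 (log2 -1.69, SE 0.05, adjusted p = 6.89e-22). Over all libraries this call was lost when any library other than descending control replicate 3 was left out (log2 -1.44 to -1.25, edgeR adjusted p = 0.119 to 0.209). The interaction was 0.67 (SE 0.31, edgeR adjusted p = 0.512) with the replicate and 0.94 (SE 0.07, adjusted p = 7.82e-10) without it. Under TGFβ *Adamts2* was higher in ascending fibroblasts (log2 0.58, SE 0.04, edgeR adjusted p = 5.44e-12). In control the difference was -0.09 (edgeR adjusted p = 0.891) with the replicate and -0.36 (adjusted p = 0.000145) without it, so that without it the order of the sites was the opposite in control and under TGFβ.

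*Adamts14* lies on chromosome 10 from 61197112 to 61273438 (minus strand) and was the least abundant of the 10 genes. Ascending controls held 6.83, 6.30 and 8.58 normalized CPM, ascending TGFβ cultures 11.9, 9.32 and 8.62, descending controls 24.3, 20.4 and 6.83, and descending TGFβ cultures 13.6, 17.6 and 15.9. The highest ascending control and the lowest ascending TGFβ culture nearly met, and descending control replicate 3 lay among the ascending controls. In ascending fibroblasts *Adamts14* rose by 0.45 with TGFβ (SE 0.15, edgeR adjusted p = 0.0162), a call that was lost without ascending TGFβ replicate 1 (0.31, adjusted p = 0.111). In descending fibroblasts the change was -0.14 (SE 0.45, edgeR adjusted p = 0.882) with and -0.51 (SE 0.10, adjusted p = 0.000123) without replicate 3, and the interaction 0.59 (adjusted p = 0.659) and 0.96 (adjusted p = 0.000636). *Adamts14* was 1.58-fold lower in ascending than in descending fibroblasts under TGFβ (log2 -0.66, SE 0.12, edgeR adjusted p = 3.23e-05). In control the difference was -1.24 (edgeR adjusted p = 0.343) with and -1.62 (SE 0.13, adjusted p = 3.24e-07), or 3.07-fold, without the replicate. Per length, *Adamts14* made up 3.94% to 6.01% of the RNA of *Adamts2* and *Adamts14* in ascending control, 9.29% to 12.1% in ascending TGFβ, 7.26% to 11.7% in descending control and 20.2% to 22.9% in descending TGFβ.

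Other genes of collagen processing were read from lists of genes of known function. Among 5 further procollagen proteinases, *Tll1*, a tolloid C-proteinase related to *Bmp1*, was at 211 ± 11.9 normalized CPM in ascending control, 644 ± 8.17 in ascending TGFβ, 77.7 ± 7.35 in descending control and 290.4 ± 23.7 in descending TGFβ (mean ± SD, n = 3), with a mean of 81.9 in the descending controls other than replicate 3. *Tll1* rose with TGFβ by 1.60 in ascending and by 1.89 in descending fibroblasts and was higher in ascending ones by 1.45 in control and 1.15 under TGFβ on the log2 scale (edgeR adjusted p = 1.19e-15, 0.00167, 0.00580 and 1.34e-18). Without descending control replicate 3, the rise in descending fibroblasts was 1.83 (edgeR adjusted p = 1.03e-20) and the difference in control 1.38 (adjusted p = 3.17e-10). *Mep1b* had 0 counts in every library, *Mep1a* and *Tll2* at most 2 and 4 counts, and *Adamts3*, the remaining N-proteinase of this family, at most 22. Of 11 further hydroxylases, glycosyltransferases and partners, 10 were tested, and with TGFβ in ascending fibroblasts 7 rose and 2 fell, or 90.0% called beside 55.8% of all genes. In descending fibroblasts 2 rose and 1 fell over all libraries (30.0% beside 8.07%), and 7 rose and 1 fell without replicate 3 (80.0% beside 52.9%). Of the prolyl 3-hydroxylases, *P3h1* rose by 0.96 in ascending and 1.24 in descending fibroblasts (edgeR adjusted p = 4.54e-13 and 0.0150; 1.08 without replicate 3, adjusted p = 8.51e-17). *P3h2*, at a level of at most 9.61 normalized CPM, fell in both (log2 -1.17 and -1.16, edgeR adjusted p = 0.00209 and 0.0194; -1.20 without replicate 3, adjusted p = 7.16e-08). *P3h3* fell in ascending fibroblasts (log2 -0.13, edgeR adjusted p = 0.00286) and was not called in descending ones (0.27, adjusted p = 0.654; -0.02 without replicate 3, adjusted p = 0.810).

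Of 16 genes of folding and export from the endoplasmic reticulum, 14 rose with TGFβ in ascending fibroblasts and the other 2 were not called (edgeR's quasi-likelihood test), or 87.5% called beside 55.8% of all genes, of which 28.2% were higher. Among them were *Creb3l1*, a transcription factor of the secretory pathway in collagen-producing cells (log2 1.12), and *Fkbp10*, a collagen-binding prolyl isomerase (0.96). In descending fibroblasts 2 rose over all libraries, *Hspa5* and *Sparc* (12.5% beside 8.07%), and 14 rose without replicate 3, with the other 2 not called (87.5% beside 52.9%). Of 9 listed fibrillar procollagen chain genes, whose products are substrates of these enzymes, 6 rose and 2 fell in ascending fibroblasts (88.9% beside 55.8%). *Col11a1* rose by 1.73, *Col2a1*, best known from cartilage, by 1.48 and *Col5a2* by 1.02, whereas *Col3a1* and *Col5a3* fell (log2 -0.997 and -1.26). In descending fibroblasts 5 of the 9 chain genes rose over all libraries (55.6% beside 8.07%), and 7 rose and 2 fell without replicate 3 (100% beside 52.9%). Of 8 genes chosen to check the response to TGFβ, 7 rose and 1, *Tgfbi*, fell in ascending fibroblasts (100% beside 55.8%), and in descending ones 5 rose and 1 fell over all libraries (75.0% beside 8.07%) and 7 rose and 1 fell without replicate 3 (100% beside 52.9%).

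*P4ha1*, *P4ha2* and *Plod2* are known targets of hypoxia-inducible factors, so 12 hypoxia-responsive genes were counted beside them. In ascending fibroblasts 3 of the 12 rose and 6 fell with TGFβ (75.0% called beside 55.8% of all genes), while *P4ha1*, *P4ha2* and *Plod2* all rose. In descending fibroblasts 2 rose and 1 fell over all libraries (25.0% beside 8.07%), and 7 rose and 1 fell without replicate 3 (66.7% beside 52.9%), where *P4ha1* and *Plod2* rose and *P4ha2* fell. *Adm* fell at both sites (log2 -2.80 and -3.05, edgeR adjusted p = 7.53e-16 and 0.000407; -3.07 without replicate 3, adjusted p = 1.66e-27). *Vegfa* rose by 0.35 and 0.75 (edgeR adjusted p = 4.31e-07 and 0.0196; 0.68 without replicate 3, adjusted p = 6.99e-12). The other risers over all libraries were *Slc2a1* (0.18) and *Pgk1* (0.11) in ascending and *Slc2a1* (0.94) in descending fibroblasts. Between the sites under TGFβ, 1 of 11 tested hypoxia-responsive genes was higher and 5 were lower in ascending fibroblasts (54.5% beside 36.3%), where *P4ha1* was higher and *P4ha2* and *Plod2* were lower. In control 0 of the 12 were called by edgeR over all libraries (4 at an unadjusted p under 0.05; DESeq2 called 2 and voom with sample quality weights 9), and without replicate 3, where *P4ha1* was higher in ascending, *P4ha2* lower (-1.30) and *Plod2* not called (0.10), 7 were higher and 2 lower, or 75.0% beside 31.6% of all genes. In the interaction 0 of the 12 were called by edgeR over all libraries (5 at an unadjusted p under 0.05; DESeq2 called 3 and voom 10), and without replicate 3, where *P4ha1* and *Plod2* had negative values and *P4ha2* a positive one, 1 was positive and 9 were negative, or 83.3% beside 13.5% of all genes. The part of hypoxia-inducible factors in these values was not tested.

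Likeness of pattern was measured as the root mean square difference between centred log2 group means, over the 4 groups and among 5511 genes that range over at least 1 log2 unit, as a description with no test. The closest gene to *P4ha2* was *Tgfbr1*, a TGFβ receptor (0.018 log2 units), with means of 32.5 normalized CPM in ascending control, 41.8 in ascending TGFβ, 76.3 in descending control and 71.8 in descending TGFβ. *Adamts14* was the next closest to *P4ha2* (0.056), and *Rian*, a long noncoding RNA, the closest to *Adamts14* (0.047). *Magi3* lay closest to *Adamts2* (0.019), *Rcc1* to *Serpinh1* (0.014) and *Pgpep1l*, at no more than 1.11 normalized CPM, to *Pcolce2* (0.097). These values include descending control replicate 3. Without it *Serpinh1* no longer ranged over 1 log2 unit, 3859 genes remained for comparison, and both genes still passed in 11 of the 15 closest pairs, of which 0 recurred. The closest gene to *P4ha2* was then *Zfp992* (0.046), followed by the collagen gene *Col15a1* (0.061).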

How the data were processed

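RNA of 12 cultures was sequenced by the authors, aligned to mm10 with STAR, and counted per gene symbol with featureCounts (versions are not given in the sources used here). The deposited values are raw read counts, one column per library, without normalization. Whether counting used strand, and how reads matching several genes were treated, is not given in the sources used here. Of the 54352 symbols, 53753 (98.9%) matched GENCODE vM21 (GRCm38), which gave positions and exon lengths. Groups of site and treatment follow the sample labels, and the main fits held no term for batch. The 10 genes and the lists beside them were chosen with earlier results of these data known.

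Tests were run with edgeR 4.0.16 under R 4.3.3 (quasi-likelihood F-test, TMM, filterByExpr at its default of 10 counts per gene and 15 over the libraries, Benjamini-Hochberg adjustment over all genes tested, called at an adjusted p under 0.05). The comparisons between groups used the libraries of the groups compared, and the interaction used all 12. The SE given for a log2 value is that value, without its sign, over the root of F. Alternatives were DESeq2 1.42.0, DESeq2's size factors in edgeR, limma 3.58.1 voom with sample quality weights, no filter, at least 10 counts in every library, an absolute log2 fold change above 1, the 12 libraries in one fit, the replicate number as a block, and fits without 1 library at a time. On simulated data the fits were tested beforehand. Those data gave every gene the same spread and held no library that stood apart, unlike the data here. The genes named are the 10, and from each list at most 3 called genes a direction by size or genes at the floor. Marker genes are named by their levels. Sequence shared between genes was measured over 50-base stretches of their exons. Figures were drawn with matplotlib 3.10.9 in Python 3.11.15. The study's single-cell data were not used here.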

Additional observations from a re-analysis of the deposited data

Results flagged for a closer look

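*P4ha1* was the only 1 of the 10 genes called in the interaction of site and TGFβ over all libraries, and the call was lost in most fits that leave out a library. The interaction was -0.49 on the log2 scale over 12 libraries (edgeR's quasi-likelihood test, adjusted p = 0.0316), with *P4ha1* higher in 3 of 3 TGFβ cultures than in any control at each site, and by more in descending fibroblasts. The value ranged from -0.51 to -0.46 when each library was left out in turn, and the call was lost in 10 of these 12 fits (adjusted p = 0.0636 to 0.136). With no filter on low counts and with the replicate block, 0 of the 10 genes were called, with 3 at an unadjusted p under 0.05 in each. Leaving out descending control replicate 3, the library that stood apart, gave -0.46 (adjusted p = 1.32e-07). The part of that library's quality, or of the marker levels that moved with site or treatment (among smooth muscle markers *Acta2*, which makes up most of their sum, while *Myh11* and *Des* fell with TGFβ in ascending fibroblasts), in this difference was not tested.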

How the results depend on the processing

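No change of sign was seen under any alternative run for the 10 genes in TGFβ against control in ascending fibroblasts or in ascending against descending under TGFβ, where 123 of 130 values each kept their side of the threshold. Descending control replicate 3 limits the other comparisons, and the cause of its profile was not tested. Where each library was left out in turn, members called ranged from 8 to 9 (ascending TGFβ response), 0 to 8 (descending), 1 to 8 (site in control), 7 to 8 (site under TGFβ) and 0 to 7 (interaction), and all genes called from 7146 to 7427, 213 to 7576, 33 to 4631, 4340 to 4656 and 25 to 2022. For the comparisons with descending controls, the highest counts were those without descending control replicate 3. At an unadjusted p under 0.05 the fits with 0 members called in the descending response held 2 to 3 of the 10, and those in the interaction 1 to 3. Depth was lowest for *Adamts14*, with 99 counts in the library that held the fewest.

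With limma voom and sample quality weights, members called were 8 in the descending response, 8 for site in control and 7 for the interaction (all genes 7335, 4392 and 1979). DESeq2 called 2242, 1034 and 419 genes in these comparisons, and 3, 3 and 1 of the members. With the 12 libraries in one fit, 3 members were called in the ascending response (all genes 2338), 5 in the descending (3570), 4 for site under TGFβ (1106) and 1545 genes for site in control. In that fit all groups share one estimate of the spread. Requiring also an absolute log2 fold change above 1 left 0 members in the ascending response (all genes 1598). In the interaction it left 0 (all genes 67), and for site under TGFβ it left 1 (*Pcolce2*, all genes 1051). Over all libraries, *Adamts2* (-1.42) passed in the descending response, and *Pcolce2* (2.46) and *P4ha2* (-1.15) for site in control. With no filter on low counts the interaction held 0 members and 56 genes.

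Same-numbered samples correlated weakly in their deviations (r from -0.026 to 0.088 over 18 pairs, 0 of them over 0.1). Of the 12 libraries, 6 correlated best with their own number. With 3 cultures a group, these values cannot decide whether same-numbered cultures came from the same animals. The replicate block gave 0 members and 95 genes in the descending response, 0 members and 0 genes for site in control (1235 of 14090 genes at an unadjusted p under 0.05) and 0 members and 50 genes for the interaction, with 3 of the 10 members at an unadjusted p under 0.05 in each.

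Signs turned for values that were not called over all libraries, and the only turned values that were themselves called were those of *Plod2* in the interaction with voom (adjusted p = 0.0234) and without descending control replicate 3 (-0.20, edgeR adjusted p = 0.0133). In the descending response *Adamts14* was 0.028 with the replicate block and -0.51 to 0.20 with libraries left out, *Pcolce* -0.099 with voom and -0.096 to 0.22, *Bmp1* -0.00011 with voom and -0.0010 to 0.35, and *P4ha2* -0.19 to 0.054. For site in control *Plod2* was 0.089 with voom and -0.22 to 0.10, *Pcolce* -0.26 to 0.050 and *Adamts2* -0.36 to 0.081. For the interaction *Plod2* was -0.0070 with DESeq2, -0.0021 with DESeq2's size factors, -0.0074 with no filter, -0.0075 with the replicate block, -0.18 with voom and -0.20 to 0.11 with libraries left out, and *Bmp1* 0.046 with voom and -0.30 to 0.049.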
